A study of Mus musculus with 9 samples.

Results

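The calcium-binding proteins described here were 10 genes chosen by symbol: Calb1, Calb2, Pvalb, Necab1, Necab2, Hpca, Hpcal1, Hpcal4, Vsnl1 and Ncald. They were measured by 18 of the 45037 probe sets on the array and made up 10 of its 18193 named genes. RNA came from the spinal cord of 3 mice of the GAD65-GFP genotype at postnatal day 6. The cord of each animal was divided into Dorsal, Intermediate and Ventral pieces, and the 9 arrays hold 3 animals for every region. The transgene was carried in all 3 regions, and the labels describe pieces of tissue and mention no sorting of cells. The comparison addresses how transcript levels differ along the dorsoventral axis of the early postnatal cord.

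These proteins bind calcium through EF-hand loops, and they fall into buffers and sensors. Calbindin-D28k (Calb1), calretinin (Calb2) and parvalbumin (Pvalb) take up calcium that enters a neuron and release it later, and are used widely as labels of interneuron types in the dorsal horn. Hippocalcin (Hpca) and its relatives Hpcal1, Hpcal4, visinin-like 1 (Vsnl1) and neurocalcin delta (Ncald) are neuronal calcium sensors, which carry a myristoyl group that is exposed on calcium binding and brings the protein to membranes. Necab1 and Necab2 are neuronal EF-hand proteins that also carry an antibiotic biosynthesis monooxygenase domain.

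RefSeq promoter entries of mouse build GRCm38.p6 matched 6 of the 10 genes, with 10 transcription starts. No entry in the set used here matched Calb1, Calb2, Ncald or Necab1. The 250 bases before the most upstream start are shown for 3 calcium sensors that stand for the 3 patterns across regions described further on: level in the dorsal and intermediate pieces (Hpca), graded from dorsal to ventral (Hpcal4) and highest in the intermediate pieces (Vsnl1). The Hpca stretch is chr4:129121748-129121997 on the minus strand, the Hpcal4 stretch chr4:123183254-123183503 on the plus strand and the Vsnl1 stretch chr12:11436579-11436828 on the minus strand. All are written 5′ to 3′, with capitals marking the GC box GGGCGG.
Hpca: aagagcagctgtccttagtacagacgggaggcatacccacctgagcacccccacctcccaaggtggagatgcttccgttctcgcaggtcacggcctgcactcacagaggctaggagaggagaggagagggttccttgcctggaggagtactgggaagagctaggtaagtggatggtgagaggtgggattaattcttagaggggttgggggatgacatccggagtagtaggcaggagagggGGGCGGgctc
Hpcal4: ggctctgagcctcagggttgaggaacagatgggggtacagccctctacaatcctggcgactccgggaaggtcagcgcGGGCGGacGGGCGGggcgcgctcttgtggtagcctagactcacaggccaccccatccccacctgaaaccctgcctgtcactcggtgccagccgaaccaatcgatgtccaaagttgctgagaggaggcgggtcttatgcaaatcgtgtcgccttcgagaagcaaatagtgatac
Vsnl1: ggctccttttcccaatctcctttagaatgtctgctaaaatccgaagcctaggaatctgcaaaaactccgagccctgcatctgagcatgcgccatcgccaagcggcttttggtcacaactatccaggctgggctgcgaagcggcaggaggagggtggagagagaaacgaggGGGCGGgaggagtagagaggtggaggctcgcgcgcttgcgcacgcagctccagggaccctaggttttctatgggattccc
The GC box, searched on both strands, stood in the windows of 5 of the 10 starts, which belong to 4 genes, and in 32.7% of the 32851 promoters of the same length in the table. The Hpca window holds 1, the Hpcal4 window 2 and the Vsnl1 window 1. Other motifs were searched in the same way, each counted on its own even where matches overlap. The E-box CANNTG occurred 2 times in the Hpca window, 2 times in the Hpcal4 window and 1 time in the Vsnl1 window, and in 66.2% of all promoters. CCAAT occurred 1 time each in the Hpcal4 and Vsnl1 windows, and in 33.8% of all. The letters TATAAA and TGACG, found in 12.4% and 17.8% of all, are in none of the 3 windows. A match describes the letters in the window and not a bound site.

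Deposited values are read here as log2 signal, with a floor of 2.146, and each array had 35.97% to 36.26% of its values within 0.01 of this floor. Differences are differences of region means with the standard error of the limma fit, which had the animal as a block, and adjusted p-values are Benjamini-Hochberg values over the 13959 genes tested. A gene was called where that value was under 0.05. Each gene was taken from its brightest probe set, and all 10 members passed the filter on low values. The 3 comparisons share arrays, so they are not independent of one another. In tissue pieces, fewer cells of a type and less RNA per cell cannot be told apart. The regional labels were checked against marker genes. All 16 dorsal horn markers were higher in the dorsal than in the ventral pieces. In the motor neuron list Chat, Slc5a7, Slc18a3 and Lhx3 were listed at the floor on all 9 arrays, while the summed signal of that list was 2710 to 3220 in the ventral and 1060 to 1350 in the dorsal pieces. Of its 8 genes tested, 3 were called higher in ventral than dorsal and 1, Ache, was called lower. The largest of these differences was that of Prph, which read 9.409 in the ventral, 2.255 in the intermediate and 2.146 in the dorsal pieces. Isl1 was as high in the intermediate (6.94) as in the ventral pieces (6.92). The ventral interneuron list had 6 genes at the floor and 1 of 5 tested called, higher in ventral, so markers speak less for the ventral label.

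Of the 10 genes, 9 were higher in the dorsal than in the ventral pieces and none was lower. The exception was Pvalb, whose probe set read near the floor throughout. Over all genes tested, 24.5% were called higher in dorsal and 28.2% lower (3425 and 3939 of 13959). The filter value lies at the floor, so the genes tested include some at the floor on every array, such as Lhx3, Runx1 and Myh1. Such genes lower the shares of all genes given here and further on, and can lower the median size given below. Among the 6713 genes with 9 distinct values above the floor, 2480 were called higher in dorsal and 2835 lower. The 9 members called had every dorsal array above every ventral array, a property of 27.5% of all genes. The median dorsal minus ventral difference of the 10 genes was 1.705 log2 units, against 0 over all genes, and the median size without sign over all genes was 0.267. A test for any difference among the 3 regions called the same 9 genes, and 58% of all genes. The plot of values by array shows each gene's 9 values.

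**Figure D1:**
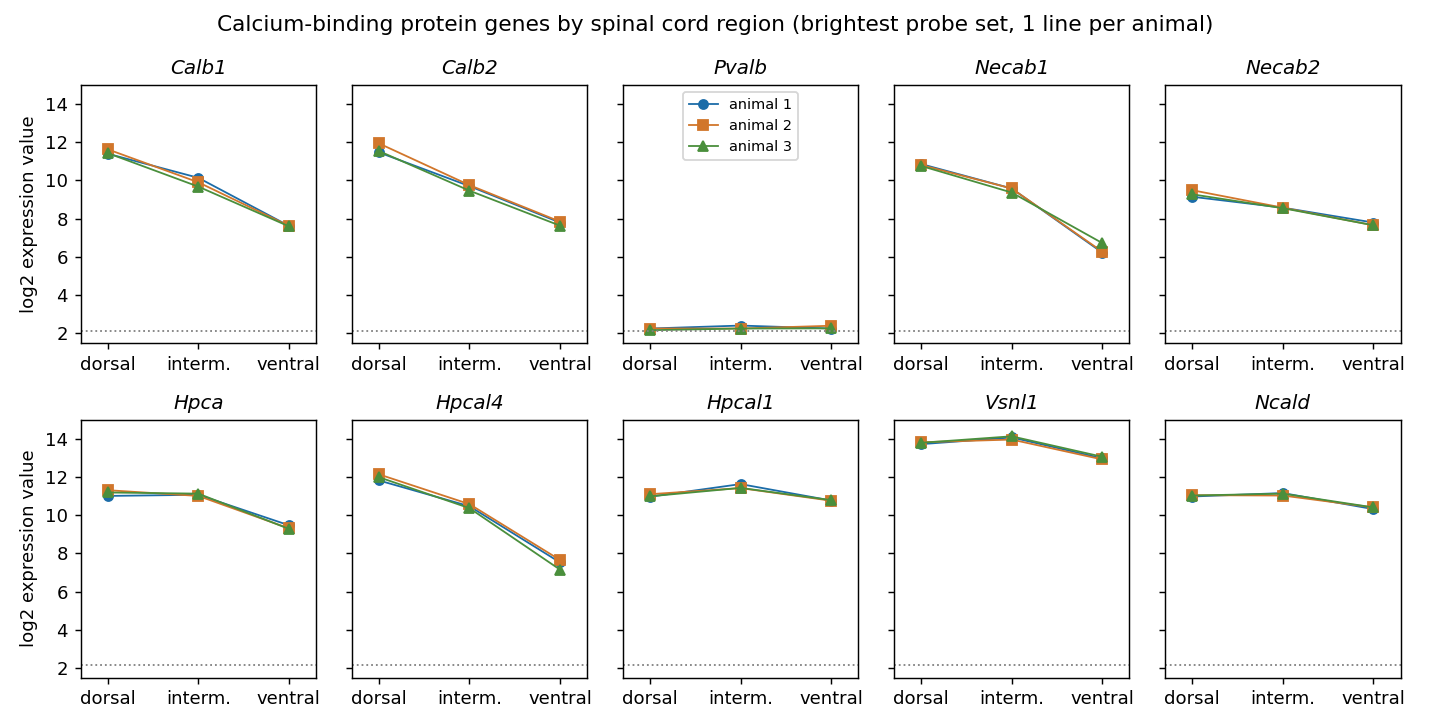
Deposited log2 value of each of the 10 genes (brightest probe set) on the 9 arrays, by region, with a line and marker for each animal and the floor dotted. Calb1, Calb2, Hpcal4 and Necab1 step down from dorsal to ventral, Hpca is lower in the ventral pieces, Hpcal1 and Vsnl1 are highest in the intermediate pieces, and Pvalb lies between 2.165 and 2.408 throughout.

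Among the buffers, calretinin (Calb2) was at 11.47, 11.94 and 11.54 in the dorsal pieces of animals 1 to 3. It was at 9.71, 9.76 and 9.47 in the intermediate pieces and at 7.80, 7.85 and 7.64 in the ventral pieces. The regions formed 3 separate levels with no overlap, and the intermediate pieces lay near the middle of the range. The dorsal level was 3.89 ± 0.09 log2 units (SE, n = 3 animals) above the ventral level, a 14.8-fold difference (limma adjusted p = 3.5e-05). The intermediate level was 2.01 ± 0.09 below the dorsal (adjusted p = 0.000482) and 1.88 ± 0.09 above the ventral (adjusted p = 0.000264).

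Calbindin (Calb1) was measured at 11.40, 11.63 and 11.43 in the dorsal pieces by its brightest probe set (1417504_at). The intermediate pieces gave 10.14, 9.90 and 9.68, and the ventral pieces 7.63, 7.63 and 7.60. Again no array of one region overlapped another region, and the intermediate arrays spread most. Dorsal exceeded ventral by 3.87 ± 0.11 log2 units (SE, n = 3), or 14.6-fold (limma adjusted p = 4.6e-05), intermediate was 1.58 ± 0.11 below dorsal (adjusted p = 0.0012) and 2.29 ± 0.11 above ventral (adjusted p = 0.000257). Calbindin and calretinin thus differed between dorsal and ventral by nearly the same amount, and each was the other's closest gene among the 10 in its pattern over the arrays.

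The other Calb1 probe sets were dimmer. At 1456934_at the dorsal values were 6.46, 6.84 and 6.41, the intermediate values 3.77, 4.69 and 3.69, and the ventral values 2.15, 2.15 and 3.06, of which the first and second are the floor. At 1448738_at, drawn from the same transcript record as the brightest probe set, dorsal pieces read 5.914, 5.995 and 5.811, intermediate pieces 2.53, 2.47 and 2.31, and ventral pieces 2.15, 2.15 and 2.21. Both had a dorsal level far above the other regions. Ventral arrays were at or near the floor except that of animal 3 at the first, and the intermediate arrays of the second were near it, so differences from those levels can be understated. With that limit, dorsal minus ventral was 4.12 and 3.74 log2 units, and intermediate minus ventral 1.60 and 0.27. The step from dorsal to intermediate was -2.52 and -3.47, against -1.58 at the brightest probe set. At the fourth, 1458836_at, the dorsal pieces read 2.43, 2.53 and 4.33 and the other 6 arrays were at the floor, and no difference was called.

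Parvalbumin (Pvalb), a buffer of fast-spiking interneurons and proprioceptive neurons, had a single probe set. It read 2.253, 2.252 and 2.165 in the dorsal pieces, 2.408, 2.253 and 2.253 in the intermediate pieces, and 2.253, 2.398 and 2.261 in the ventral pieces. The regions overlapped, and every value lay just above the floor of 2.146. Dorsal minus ventral was -0.08 ± 0.06 log2 units (limma adjusted p = 0.307), and at such a signal a difference between regions was not detectable.

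Necab1 was among the members with the widest range. The dorsal pieces read 10.86, 10.81 and 10.76, the intermediate pieces 9.58, 9.58 and 9.37, and the ventral pieces 6.23, 6.28 and 6.73. No region overlapped another, and the dorsal and intermediate levels lay closer together than the intermediate and ventral levels. The dorsal level was 4.40 ± 0.16 log2 units (SE, n = 3) or 21.1-fold above the ventral (limma adjusted p = 6.8e-05), and the intermediate level 3.10 ± 0.16 or 8.58-fold above it (adjusted p = 0.000272). The intermediate level was 1.30 ± 0.16 below the dorsal (adjusted p = 0.00514), a call that was lost without animal 1 (0.0668) or animal 2 (0.0672). A dimmer Necab1 probe set (1457142_at) read 2.21, 2.65 and 2.32 in the dorsal pieces and the floor on the other 6 arrays, with no difference called.

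Necab2, its paralog, followed the same order with a smaller range. It read 9.15, 9.49 and 9.27 in the dorsal, 8.58, 8.58 and 8.55 in the intermediate and 7.80, 7.66 and 7.66 in the ventral pieces. The 3 regions did not overlap. Dorsal was 1.60 ± 0.09 log2 units (SE, n = 3) or 3.03-fold above ventral (limma adjusted p = 0.00022). The step from dorsal to intermediate was -0.74 ± 0.09 (adjusted p = 0.00597) and intermediate exceeded ventral by 0.86 ± 0.09 (adjusted p = 0.00177). Without animal 3 both of these smaller steps missed the threshold, at adjusted p = 0.105 and 0.0526.

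Hippocalcin (Hpca), a calcium sensor known for its part in the slow afterhyperpolarisation of hippocampal neurons, read 11.01, 11.31 and 11.19 in the dorsal pieces. The intermediate pieces gave 11.07, 11.01 and 11.13, and the ventral pieces 9.48, 9.32 and 9.29. The dorsal and intermediate arrays overlapped, and all 6 lay above the 3 ventral arrays. Dorsal exceeded ventral by 1.81 ± 0.10 log2 units (SE, n = 3), or 3.51-fold (limma adjusted p = 0.00019), and intermediate exceeded ventral by 1.71 ± 0.10, or 3.28-fold (adjusted p = 0.000368). The intermediate minus dorsal difference was -0.10 ± 0.10 (adjusted p = 0.546).

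The second Hpca probe set (1425833_a_at) gave the same arrangement at a lower signal. It read 7.12, 7.41 and 7.21 in the dorsal, 7.14, 6.96 and 6.96 in the intermediate, and 4.95, 5.23 and 4.95 in the ventral pieces. Dorsal minus ventral was 2.20 log2 units there (adjusted p over all probe sets = 0.000202), intermediate minus ventral 1.97 (0.000499) and intermediate minus dorsal -0.23 (0.211).

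Hpcal4, a hippocalcin relative of the same sensor family, had the largest dorsal minus ventral difference of the 10 genes and ranked 28 among all 13959. Its dorsal values were 11.82, 12.14 and 11.99, its intermediate values 10.47, 10.58 and 10.37, and its ventral values 7.53, 7.66 and 7.15. The 3 regions were well apart, with the ventral arrays spread most. Dorsal was 4.54 ± 0.11 log2 units (SE, n = 3) or 23.2-fold above ventral (limma adjusted p = 3.5e-05), and intermediate 3.03 ± 0.11 or 8.15-fold above it (adjusted p = 0.000169). The intermediate level was 1.51 ± 0.11 below the dorsal (adjusted p = 0.00122).

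Visinin-like 1 (Vsnl1) was highest in the intermediate pieces. It read 13.72, 13.82 and 13.79 in the dorsal, 14.07, 13.96 and 14.13 in the intermediate, and 12.98, 12.92 and 13.06 in the ventral pieces. Every intermediate array lay above every dorsal array, and every dorsal array above every ventral array. Dorsal was 0.79 ± 0.05 log2 units (SE, n = 3) or 1.73-fold above ventral (limma adjusted p = 0.000247), and intermediate was 1.07 ± 0.05 above ventral (adjusted p = 0.000232). The intermediate excess over dorsal, 0.28 ± 0.05 or 1.21-fold (adjusted p = 0.0147), was lost when animal 1 (0.149) or animal 3 (0.162) was left out. It was also lost without Dorsal replicate 1 (0.0551) or 3 (0.0614), without Intermediate replicate 1 (0.0658) or 3 (0.0679), and in a fit of the arrays of those regions alone (0.102). The dimmer Vsnl1 probe set (1450055_at) gave 1.01 for dorsal minus ventral, 1.29 for intermediate minus ventral and 0.28 for intermediate minus dorsal (adjusted p over all probe sets = 0.0465).

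Hpcal1, which is widely expressed in brain, had its highest values in the intermediate pieces too. The dorsal pieces read 10.97, 11.10 and 10.99, the intermediate pieces 11.63, 11.42 and 11.43, and the ventral pieces 10.77, 10.76 and 10.79. The regions did not overlap, though dorsal and ventral lay close together. Intermediate was 0.47 ± 0.07 log2 units (SE, n = 3) or 1.39-fold above dorsal (limma adjusted p = 0.00875) and 0.72 ± 0.07 or 1.65-fold above ventral (adjusted p = 0.00123). Without animal 2 or animal 3, or with the arrays of those regions alone, the excess over dorsal missed the threshold (adjusted p = 0.0517, 0.11 and 0.0799).

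The dorsal excess of Hpcal1 over ventral, 0.25 ± 0.07 or 1.19-fold (adjusted p = 0.0366), was the least firm of the 9. It was lost with each array centred on its median (0.0611), with no filter on low values (0.0609) and without animal 2 (0.175) or animal 3 (0.173). Leaving out single arrays lost it for Dorsal replicate 2 (0.11), Dorsal replicate 3 (0.11), Intermediate replicate 3 (0.0643) and Ventral replicates 1, 2 and 3 (0.128, 0.122 and 0.0745).

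Neurocalcin delta (Ncald) read 10.98, 11.05 and 11.03 in the dorsal, 11.16, 11.03 and 11.13 in the intermediate, and 10.32, 10.41 and 10.41 in the ventral pieces. Dorsal and intermediate overlapped and lay above all ventral arrays. Dorsal was 0.64 ± 0.04 log2 units (SE, n = 3) or 1.56-fold above ventral (limma adjusted p = 0.000346), and intermediate 0.73 ± 0.04 or 1.65-fold above it (adjusted p = 0.000396). Intermediate minus dorsal was 0.08 ± 0.04 (adjusted p = 0.24), and passed the threshold in 1 of the alternatives, without Intermediate replicate 2 (0.0456). The probe set 1417569_at gave 0.52 for both dorsal minus ventral and intermediate minus ventral. Another, dim one (1444466_at) read between 4.107 and 4.459 with no difference called.

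**Figure D2:**
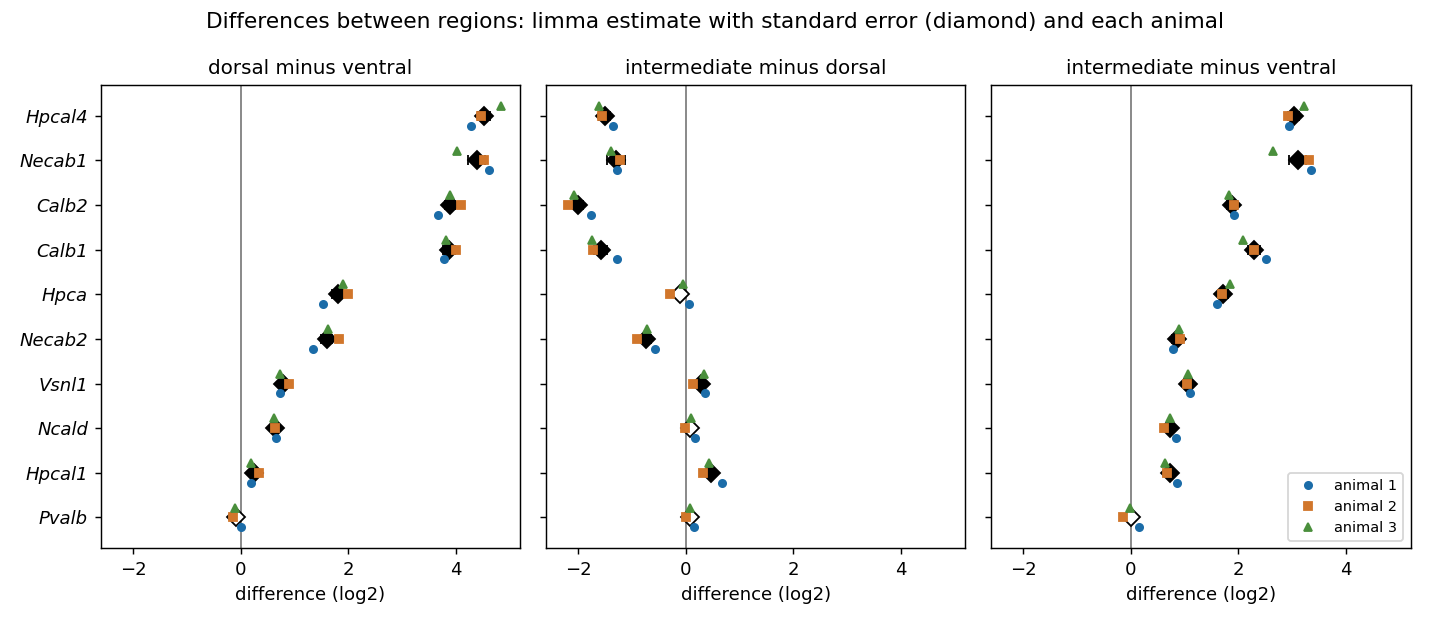
Differences between regions for the 10 genes in log2 units: dorsal minus ventral, intermediate minus dorsal and intermediate minus ventral. Small markers are the 3 animals, and diamonds the limma estimate with its SE, filled where called. Hpcal4 (4.54), Necab1 (4.40), Calb2 (3.89) and Calb1 (3.87) form the upper group, and Hpcal1 (0.47) and Vsnl1 (0.28) are called higher in intermediate than dorsal.

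By the size of the dorsal minus ventral difference, the genes ordered as Hpcal4, Necab1, Calb2, Calb1, Hpca, Necab2, Vsnl1, Ncald and Hpcal1. The ranges over the 3 animals overlapped between neighbours from Hpcal4 to Calb1 and between Hpca and Necab2. The range of Calb1 (3.78 to 4.01) lay clear of that of Hpca (1.53 to 2.00), and Necab2 (1.35 to 1.84), Vsnl1 (0.73 to 0.90), Ncald (0.63 to 0.66) and Hpcal1 (0.19 to 0.34) did not overlap one another. The upper 4 genes were 2 buffers, 1 Necab protein and 1 calcium sensor, so neither the sensors nor the Necab genes kept together in this order. The distribution over all genes shows where each gene fell.

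**Figure D3:**
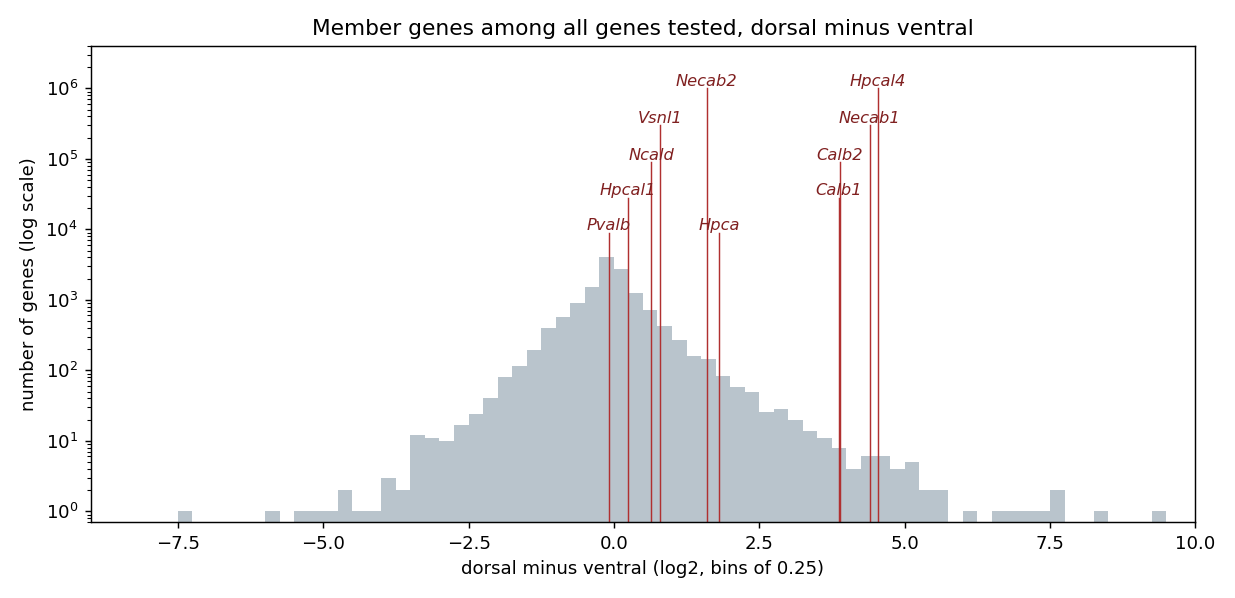
Number of genes (log scale) by dorsal minus ventral difference in log2 units, over the 13959 genes tested, with a line at each of the 10 members. Hpcal4, Necab1, Calb2 and Calb1 lie in the thin right tail, and Pvalb (-0.08) lies to the left of 0.

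The intermediate pieces separated the members further. Relative to dorsal, 5 genes were lower in intermediate (Calb1, Calb2, Hpcal4, Necab1 and Necab2) and 2 were higher (Hpcal1 and Vsnl1), where 14.2% of all genes were called lower and 15.9% higher. With each array centred on its median, the genes called between these regions split into 3222 higher and 1540 lower, in place of 2219 and 1983. Relative to ventral, 9 of the 10 were higher in intermediate, against 23.4% of all genes. The same 5 genes that stepped down from dorsal were called in both steps, as were 5.75% of all genes, and had no overlap between neighbouring regions in the order dorsal, intermediate, ventral, as had 8.15% of all genes.

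The height of the intermediate level between ventral (0%) and dorsal (100%) gave a second ordering. It was 48.5% ± 3.0 (SD, n = 3 animals) for Calb2, 54.4% ± 3.9 for Necab2, 59.2% ± 6.4 for Calb1, 66.8% ± 1.7 for Hpcal4 and 70.3% ± 4.1 for Necab1. The place of Calb1 rests on its brightest probe set. At the dimmer 1456934_at and 1448738_at, intermediate exceeded ventral by 1.60 of 4.12 and by 0.27 of 3.74 log2 units. Most ventral arrays of those probe sets were at or near the floor. Hpca stood at 95.4% ± 9.7, from values of 104%, 84.9% and 97.0% in animals 1 to 3, Ncald at 113% ± 14.6 and Vsnl1 at 137% ± 18.5. Hpcal1, with a dorsal minus ventral difference of only 0.25, and Pvalb, with none called, were given no height. Hpcal4 and Necab1, whose dorsal minus ventral differences overlapped, had heights that overlapped too (65.2% to 68.6% and 65.6% to 72.9% over the animals). Among the 894 genes called and at least 2-fold higher in dorsal than ventral, the median height was 69%, the quartiles were 46.1% and 86.1%, and 20.9% stood above 90%. Vsnl1 (1.73-fold) and Ncald (1.56-fold) fall outside that set, so their heights cannot be set directly against its values.

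Against the mean of the dorsal and ventral levels, the intermediate level was called higher for 7 of the 10 genes and for 18.8% of all genes. The excess was 0.90 ± 0.14 log2 units (SE, n = 3) for Necab1 (limma adjusted p = 0.00843), 0.81 ± 0.09 for Hpca (0.00351), 0.76 ± 0.09 for Hpcal4 (0.00487), 0.67 ± 0.04 for Vsnl1 (0.00123), 0.60 ± 0.06 for Hpcal1 (0.00294) and 0.41 ± 0.04 for Ncald (0.00259). These calls were not firm apart from that of Vsnl1, which held in each alternative run. Necab1 missed the threshold without animal 1 (0.0947), animal 2 (0.0937) or Intermediate replicate 1 (0.0532), and Hpcal4 without animal 1 (0.0509) or animal 2 (0.0606). Hpca, Hpcal1 and Ncald missed it without animal 3 (0.0735, 0.0618 and 0.0664). Calbindin's excess of 0.35 ± 0.10 (adjusted p = 0.0476) was lost whenever any animal or any single array was left out (0.0582 to 0.173), with no filter on low values (0.0805) and over single probe sets (0.0652). It turned to -0.46 (adjusted p = 0.351) when the most variable probe set stood for each gene. Calb2 and Necab2 lay at -0.06 ± 0.08 and 0.06 ± 0.08 from that mean (adjusted p = 0.625 for each). The number of these calls fell to 4 without animal 1 or animal 2 and to 3 without animal 3.

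**Figure D4:**
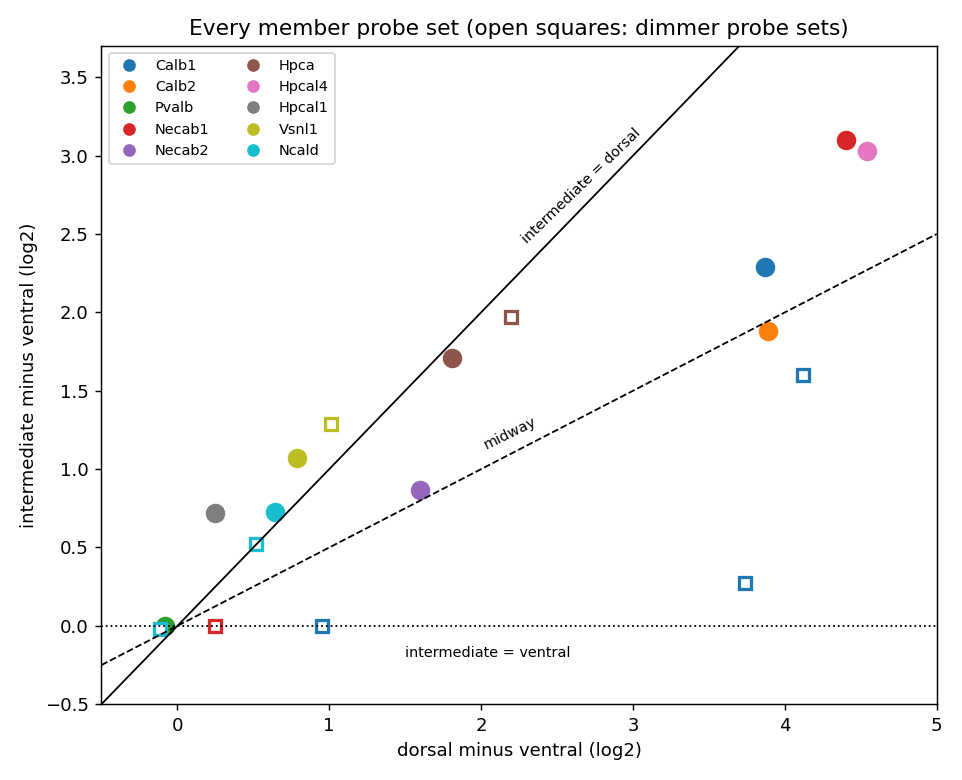
Intermediate minus ventral against dorsal minus ventral difference (log2) for all 18 probe sets of the 10 genes, with filled circles for the brightest and open squares for the dimmer ones. Both Hpca probe sets lie near the line where intermediate equals dorsal, while the dimmer Calb1 probe sets lie below the midway line. The dim Calb1 and Necab1 points on the line where intermediate equals ventral have both regions at the floor, which sets that place.

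The genes most like each member were those with the smallest root mean square distance between centred values over the 9 arrays, out of 12822 genes. Nearest to Hpca were C1qtnf4 (distance 0.085 log2 units), Cdkl2 (0.0886), Doc2a (0.0969), Scn3b (0.099) and Zcchc12 (0.1), of which Doc2a is a calcium sensor of vesicle release and Scn3b a sodium channel beta subunit. Their dorsal minus ventral differences ran from 1.66 to 1.89. Calb1 had Kcnip2 (0.12), a neuronal calcium sensor that modulates A-type potassium channels, and Calb2 had Kcnc2 (0.12), which encodes the channel Kv3.2. Hoxb9, a homeobox factor, was nearest to both Hpcal4 (0.189) and Necab1 (0.171). For the genes with smaller ranges, the nearest were Lamp5 (0.0514) for Vsnl1, Zcchc18 (0.0407) for Ncald, Sult4a1 (0.052) for Hpcal1 and Tub (0.0547) for Necab2. Among the members themselves, the pairs in which each gene was the other's nearest were Vsnl1 with Ncald (0.147), Calb1 with Calb2 (0.222), Hpcal4 with Necab1 (0.282) and Hpca with Necab2 (0.363). Hpcal1 was nearest to Ncald (0.193).

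Other genes that handle calcium were counted in lists, to be read against the 24.5% of all genes called higher in dorsal than ventral and the 28.2% called lower. Those shares are lowered by genes at the floor, as described above. Of 7 other neuronal calcium sensors tested, 4 were higher and none lower, with a list median of 1.06 log2 units. The number lower was 2 without animal 3, and 1 without Dorsal replicate 3 or Ventral replicate 3. Kcnip2 led with a difference of 4.08 ± 0.07 (limma adjusted p = 2.47e-05), and Kcnip4, of the same channel-binding family, and Ncs1 (frequenin) differed by 1.12 each. In the list of other EF-hand buffers and sensors, 3 of 14 genes were higher and 7 lower (median -0.30). That list also holds Pcp4 and Nrgn, which bind calmodulin and have no EF-hand, and both were among those higher. Nrgn was near the floor, however, at 2.789 in the dorsal, 2.184 in the intermediate and 2.146 in the ventral pieces, with 3 arrays at the floor. Pcp4, a calmodulin regulator, was 2.00 higher in dorsal, whereas Cabp7 (-1.73) and S100b (-1.42), an astrocyte protein, were lower.

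The next list held calcium-calmodulin kinases and calcineurin subunits, enzymes that calcium-bound calmodulin activates, and the calcineurin regulators Rcan1 and Rcan2. In it 11 of 15 genes were higher in dorsal and 1 lower (median 0.98). The gene called lower was the regulator Rcan2 (-0.85). Camk2a differed by 4.12 log2 units, Camk2d by 1.70 and the calcineurin subunit Ppp3ca by 1.57. Of the calcium pumps and exchangers, 5 of 12 were higher (3 without animal 3) and 4 lower (2 without animal 2), with a median of 0.27. The exchanger Slc8a3 differed by 1.07, the plasma membrane pump Atp2b4 by 0.99 (limma adjusted p = 0.079 without animal 3) and the store pump Atp2a3 by -0.72 (0.162 without animal 2). Of the store genes 5 of 15 were higher and 6 lower (median -0.01), among them the channel subunit Orai2 (1.88), the ryanodine receptor Ryr3 (1.33) and the inositol trisphosphate receptor Itpr2 (-1.41).

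**Figure D5:**
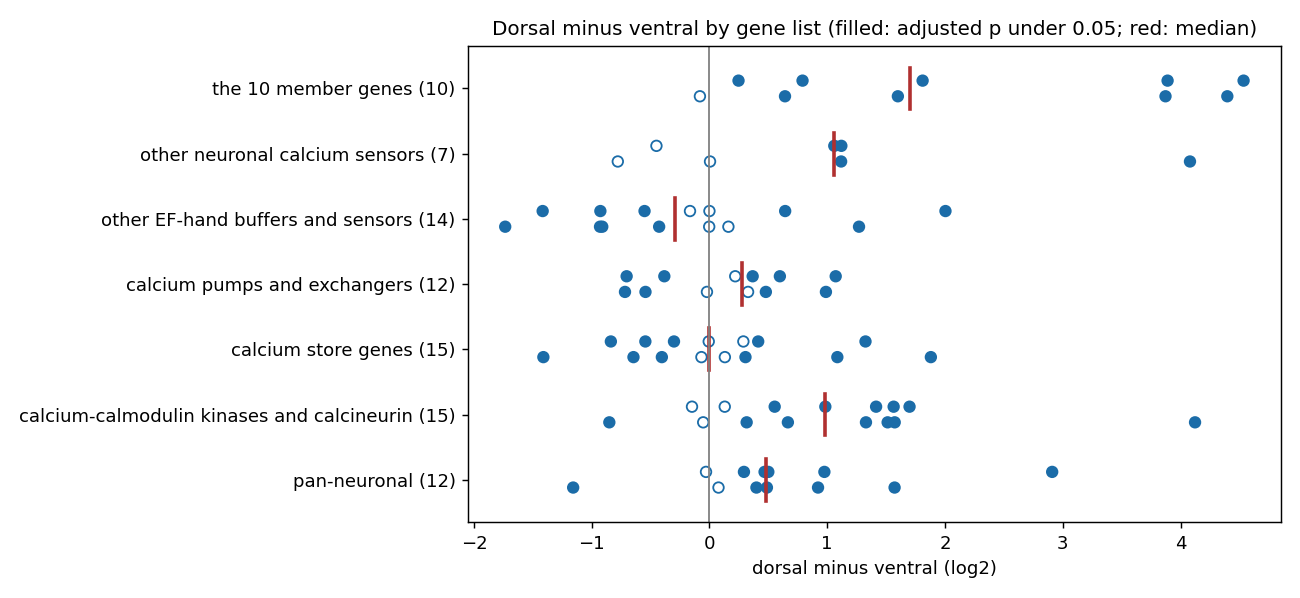
Dorsal minus ventral difference (log2) of each tested gene among the 10 members, 5 lists of calcium genes and the pan-neuronal genes, filled where called, with the median of each list in red. The medians of the members (1.705) and of the other neuronal calcium sensors (1.06) lie to the right of 0. The list of other EF-hand genes (-0.30), which also holds Pcp4 and Nrgn, spreads to both sides.

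Markers of cell types moved with the regions. Of 12 pan-neuronal genes, 9 were higher in dorsal than ventral and 1 lower, with differences from -1.16 (Nefl) to 2.91 (Syt1) and a median of 0.48. Their summed signal was 93200 to 105000 in the dorsal, 110000 to 117000 in the intermediate and 77700 to 79600 in the ventral pieces, so the sum was highest in intermediate, as were Vsnl1 and Hpcal1. Gene by gene, 5 of the 12 were higher in intermediate than dorsal and 2 were lower (Syt1 and Rbfox3). The number higher fell to 3 without animal 1 and to 1 without animal 3. Of 4 genes of GABA and glycine neurons, 3 were higher in intermediate than dorsal (Slc6a5 by 1.94, Gad2 by 1.26 and Slc32a1 by 0.75), Gad1 was lower (-1.06), and all 4 were higher in intermediate than ventral. The differences of Vsnl1 (0.79), Ncald (0.64) and Hpcal1 (0.25) lay within the range of the pan-neuronal genes. Those of Hpca (1.81) and Necab2 (1.60) lay within it only through Syt1. They were above that of the next highest pan-neuronal gene, Rbfox3 (1.57). Those of Hpcal4, Necab1, Calb2 and Calb1 were larger than that of any pan-neuronal gene listed.

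Dorsal horn markers summed to 22600 to 27100 in the dorsal, 7710 to 8330 in the intermediate and 2020 to 2030 in the ventral pieces. All 16 of them were lower in intermediate than dorsal, as were Calb1, Calb2, Hpcal4, Necab1 and Necab2. The number of these markers called lower fell to 13 without animal 1 and to 14 without animal 2 or animal 3. All 10 astrocyte genes and 9 of 10 oligodendrocyte lineage genes were lower in dorsal than ventral. All 9 meningeal and fibroblast genes were lower in intermediate than ventral, with sums of 13000 to 27900 in dorsal, 3120 to 3940 in intermediate and 17400 to 23600 in ventral pieces. In the sensory ganglion list Avil, Runx1, Runx3, Scn10a and Trpv1 were listed at the floor on every array. Of its 9 genes tested, 2 were higher in dorsal than ventral (Pou4f1 by 4.49 and Ntrk2 by 1.16 log2 units) and 4 were lower, including Prph and Isl1, which are also on the motor neuron list. No skeletal muscle gene was called in any comparison. The part of these cell types in the members' differences was not tested.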

How the data were processed

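Total RNA (500 ng) of 9 spinal cord pieces was hybridised to Affymetrix arrays as biotin-labelled cRNA, per the labels' protocols. The authors deposited 1 table of processed values on what reads as a log2 scale, which the labels do not state. The summarisation and normalisation are not given in the sources used here. The number of arrays limits the precision. GEO's platform table gave the gene names: 34945 had 1 gene symbol, 932 several and 9160 none. All 10 members kept their symbol under current gene records. Each gene was represented by its brightest probe set with 1 symbol, and genes whose mean lay below the 30th percentile of all probe sets (2.14606) were left out. Region means with the animal as a fixed block were fitted over all 9 arrays with limma 3.58.1 in R 4.3.3 and moderated (4 residual and 0.749 prior degrees of freedom). P-values were adjusted by Benjamini and Hochberg over 13959 genes, or over 31526 probe sets where single probe sets are compared, with calls under 0.05. Figures were drawn with matplotlib 3.10.9.

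The titles name the animal of each piece, which gives the pairing. Deviations from the region means correlated at -0.066 to 0.246 within an animal (mean 0.081, 9 pairs) and at -0.18 to 0.161 between animals (mean -0.041, 18 pairs), so the ranges overlap. The deviations of the 3 arrays of a region cancel out, which ties the between-animal values to the within-animal ones. The comparison is therefore no independent check of the pairing. On simulated data of 13959 genes, the dorsal minus ventral test recovered 92% of 100 genes changed by 1 log2 unit and 98% of 100 changed by 2, and 5.9% of its calls were false. Far fewer genes were changed there than the 7364 called in the data. The simulated noise was normal, without a floor or repeated values, so these rates need not hold for the data. The members, gene lists and rules were chosen with earlier results of these data known, and the comparison of the intermediate level with the mean of the others was added after values were seen. Genes named from the calcium lists were the up to 3 with the largest dorsal minus ventral differences, and those most like a member the nearest 1 to 5. Alternatives tried were another scaling, filter, probe set rule, variance model, no block, and leaving out animals and arrays. Several values are repeated exactly between arrays of a gene (2 ventral Calb1 arrays, for instance), which can make a spread look smaller.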

Additional observations from a re-analysis of the deposited data

How the results depend on the processing

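The dorsal minus ventral difference kept its direction for all 9 called genes under every alternative run, and its call for 8 of them; Hpcal1 is the exception described above. Without the replicate block 9, 7 and 9 members were called for dorsal minus ventral, intermediate minus dorsal and intermediate minus ventral, as with it. Leaving out animals or arrays gave 4 to 8 members called for intermediate minus dorsal, and 3 to 6 of 7 for the comparison of intermediate with the mean of the others. That comparison gave 4 among genes with 9 distinct values, a setting that leaves out Calb1, Pvalb, Hpca and Necab1 by construction. The Calb1 value in it turned to -0.46 when a gene was taken from its most variable probe set; the cause was not tested. Over all genes, leaving out animals lowered the calls from 4202 to between 1464 and 2454 for intermediate minus dorsal, and the arrays of those regions alone gave 2105, with fewer arrays in the fit. For intermediate minus ventral, 4200 in place of 6731 genes were called without animal 3. For the comparison with the mean of the others, 5127 calls became 2074, 3340 and 1477 without animals 1, 2 and 3, 2919 without Intermediate replicate 1 and 3396 without Intermediate replicate 3. Single probe sets, which are more features, gave 13511, 7113, 11597 and 8232 calls over the 4 comparisons. Signal at the floor limits Pvalb, the dim Calb1 probe sets and the dim Necab1 probe set.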
